A study of Mus musculus with 8 samples.

Results

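Gene expression was compared in the still-open neural tube of mouse embryos from diabetic and from normal dams. The comparison rests on 4 of the 8 libraries of the series: libraries 13 and 14 from diabetic dams and libraries 09 and 10 from normal dams, all taken as the labels assign them. All embryos were of the FVB strain and were collected on day 8.5 of gestation. The tissue was cut by laser from frozen sections lying just in front of the first closure site, where the neural folds are about to meet. The other 4 libraries hold closed neural tube from just behind that site, 11 and 12 from normal and 15 and 16 from diabetic dams. They serve here as a second comparison of diabetic and normal dams, and whether the dams were the same is not stated. The sources used here do not say how the dams became diabetic, what their glucose levels were, or how many embryos or litters went into a library. The p-values below therefore measure the spread between these libraries, which may be partly technical. With 2 libraries against 2, an exact two-sided permutation test of a single gene cannot give a p below 0.333, so no such test was run.

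The neural tube forms when the neural plate bends, its edges rise as folds, and the folds meet and fuse at the dorsal midline. Closure begins at the hindbrain and neck boundary and runs from there in both directions, and failure leaves an open brain or spinal cord. Diabetes of the mother raises the risk of such defects. In mice the transcription factor Pax3, needed for closure and for neural crest, is the gene most often linked to this risk, together with excess glucose uptake, oxidative stress and cell death.

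The libraries were made by SAGE, which counts 1 short tag per transcript, read from the cutting site CATG nearest to the 3′ end. A gene's value is the number of its tags, and levels are given as counts per 1000000 of the library (CPM) after TMM scaling. The tags expected for 7 genes that carry the results below show what was counted. Each is the 27 bases that start at the last CATG of every coding transcript of the gene. None occurs at that place in a coding transcript of another gene of the annotation used, and most non-coding genes were not searched. Capitals mark the cutting site.
Pdcd6: CATGtgccttactttttaaaaaaaatt
Foxj1: CATGtaaagttctttacaataaaatgt
Gabarap: CATGaagaagacttctttctatacatt
Hba-x: CATGaccagctatgatccctctcctcc
Hbb-bh1: CATGgggactgcattgagagcacaaat
Pax3: CATGtaaaaagtgcagtaaatatttac
Peg10: CATGgatgacattctagtgaaggttag
On GRCm38 these tags lie at chr13:74303557-74303583 for Pdcd6, chr11:116330734-116330760 for Foxj1 and chr1:78101304-78101330 for Pax3, all on the minus strand. The Gabarap tag lies at chr11:69994465-69994491 and the Hba-x tag at chr11:32278028-32278054 on the plus strand. The Hbb-bh1 tag lies at chr7:103841671-103841697 on the minus strand and the Peg10 tag at chr6:4760008-4760034 on the plus strand. The Gabarap tag is in coding sequence and the others are in 3′ UTRs. The deposited counts were made on mm9, so these positions describe the tags and not the authors' alignments.

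The 4 open libraries held 10127618 counts (09), 5668054 (10), 16655583 (13) and 8376378 (14), and between 9920 and 11557 of the 26608 listed genes had a count in a library. Many genes were absent from one library of a pair. Of 9490 genes with at least 50 counts in library 13, 11.9% had no count in library 14, and the other 3 such shares in open tissue were 3.12% to 6.44%. In the closed libraries the shares were 0.0146% to 1.22%. Floors and counting intervals below cover counting error only, and this loss of genes between libraries of a pair comes on top of it. Nor does a missing count show that a transcript was absent. Of 78 cytosolic ribosomal protein genes listed, 32 had no count in the open libraries. Library 13 also stood apart in tissue genes. Sox2, a factor of neural progenitors, was at 560 CPM in library 09, 277 in 10, 30.2 in 13 and 411 in 14. Gata4, a factor of heart and gut, was at 0.101, 0.17, 86 and 0 CPM in the same order. Xist, the RNA of X inactivation in females, was at 289 CPM in library 10 and at 2.94 or less in the other 3. The Y-linked Ddx3y was at 0.849 CPM in library 10 and at 204, 262 and 252 CPM in 09, 13 and 14. The part of tissue make-up and of embryo sex in the differences below was not tested. In tissue pieces, fewer cells of a type and less RNA per cell cannot be told apart.

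No gene passed edgeR's quasi-likelihood test. Of 11779 genes tested, 0 (0%) had an adjusted p below 0.05 (the lowest was 0.251). At an unadjusted p under 0.05 there were 467 genes higher (3.96%) and 384 lower (3.26%) with diabetic dams, where 589 in all is 5% of the genes tested. That count depends on the spread shared with the closed libraries. With the 4 open libraries alone, edgeR gave 437 of 10404 genes an unadjusted p under 0.05. DESeq2 called 113 of 10408 genes higher (1.09%) and 86 lower (0.826%), and limma-voom called 1 gene, Pdcd6. Counting by library, both diabetic libraries were above both normal ones for 2000 genes (17%) and below them for 1815 (15.4%). If the 4 open libraries fell in random order, a gene would show either pattern with a probability of 0.333. These counts by themselves are thus no sign of a difference between dams. The nearest libraries were over 2-fold apart for 600 genes higher (5.09%) and 388 lower (3.29%). The median log2 fold change of all genes was 0.021. The genes below are thus given by their values, with higher and lower describing the libraries and not a passed test.

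Among genes lower with diabetic dams, Pdcd6 gave the widest separation at a high level. Pdcd6 encodes a calcium-binding adaptor named for its link to programmed cell death, which also acts in vesicle traffic and membrane repair. It was at 528 and 484 CPM in normal libraries 09 and 10 and at 4.06 and 28.4 CPM in diabetic libraries 13 and 14. The mean was 31.2-fold lower with diabetic dams, with a log2 fold change of -4.98 (SE 0.75, edgeR adjusted p = 0.251, DESeq2 adjusted p = 3.31e-13). The groups did not overlap, and closed tissue held 400 and 340 CPM with normal and 333 and 475 CPM with diabetic dams, so libraries 13 and 14 were the only 2 of 8 with little Pdcd6.

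A pair of genes with no count in both diabetic libraries came next in p. Slit1, a secreted guidance cue that binds Robo receptors, was at 26 and 30.6 CPM with normal dams and had no count with diabetic dams. Against a floor of 3 counts over the group it was at least 236-fold lower (439 counts against 0, edgeR adjusted p = 0.251). Foxj1, the factor that switches on motile cilia genes and marks node and floor plate cells, was at 12.9 and 36.5 CPM and likewise had no count in 13 or 14, at least 184-fold lower (343 counts against 0). Both were present in all 4 closed libraries, at 4.64 to 15.7 CPM for Slit1 and 6.26 to 43.8 CPM for Foxj1. Ltbp3, a protein that holds latent TGF-beta in the matrix, was at 10.3 and 12.7 CPM and had no count with diabetic dams, at least 95.1-fold lower.

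The other genes of smallest p in this direction were not absent from both diabetic libraries. Psmb7, a catalytic subunit of the proteasome, was at 184 and 245 CPM with normal and 57.8 and 63.8 CPM with diabetic dams, 3.52-fold lower (log2 fold change -1.82, SE 0.31, edgeR adjusted p = 0.273). Cct7, a subunit of the chaperonin that folds actin and tubulin, was at 246 and 335 against 50.6 and 97.4 CPM. Ghitm, an inner mitochondrial membrane protein, was at 316 and 465 against 119 and 136 CPM. In each of these 3 both diabetic libraries lay below both normal ones. Prpf39, a splicing factor, was at 232 and 353 against 84 and 68.8 CPM. Cst3, a secreted inhibitor of cathepsins, was at 42.6 and 69.1 against 2.88 and 1.88 CPM, 23.5-fold lower. Peli2, a ubiquitin ligase of innate immune signalling, was at 46.2 and 45 against 5.94 and 8.22 CPM, and Ubqln4, a shuttle factor that brings proteins to the proteasome, at 127 and 78.5 against 7.24 and 19.4 CPM. Tcfap2a, a crest and ectoderm transcription factor whose loss in mice prevents cranial closure, was at 13.2 and 6.62 against 0.177 and 0 CPM. That is 170 counts against 3, a ratio of 91.3 (95% counting interval 30.7 to 447). These 12 genes are the ones with the smallest p among those lower.

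Gabarap was among the 12 genes of smallest p that were higher with diabetic dams, though not the one with the widest gap. Gabarap is a small ubiquitin-like protein that is joined to lipid on forming autophagosomes. It was at 117 and 159 CPM in 09 and 10 and at 531 and 442 CPM in 13 and 14, 3.52-fold higher (log2 fold change 1.82, SE 0.32, edgeR adjusted p = 0.273, DESeq2 adjusted p = 0.000179). The groups did not overlap. In closed tissue it was at 318 and 213 CPM with normal and 448 and 318 CPM with diabetic dams, mostly between the open groups.

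Hmgb2, a chromatin protein of dividing cells, was at 192 and 478 CPM with normal and 1380 and 1120 CPM with diabetic dams, 3.73-fold higher (edgeR adjusted p = 0.448). Hspa8, the constitutive cytosolic chaperone, was at 6.03 and 18.2 against 80.9 and 65.2 CPM. Peg10, a paternally expressed gene of retrotransposon origin needed in the placenta, was at 14.4 and 9.85 against 70.8 and 44.5 CPM, 4.76-fold higher. For Hspa8 and Peg10 the normal open libraries were the low ones of all 8, since closed tissue held 40 to 65.4 CPM and 38.6 to 79 CPM. Piwil2, which binds small RNAs that silence transposons in germ cells, showed the other arrangement. It was at 2.71 and 2.89 against 65.7 and 49 CPM, 20.5-fold higher, and at 2.66 to 7.27 CPM in closed tissue, so the 2 diabetic open libraries were the high ones of all 8.

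Some of the genes of smallest p were nearly without counts in normal open tissue. Slc35a3, a Golgi sugar-nucleotide transporter, had no count in 09 or 10 and was at 12 and 39.5 CPM in 13 and 14, at least 112-fold higher. Mapk7, a kinase of the MAPK family, was at 0.101 and 0.17 against 16.1 and 19.5 CPM, 2 counts against 440, a ratio of 137 (95% counting interval 37.6 to 1130). Dag1, the dystroglycan receptor for laminin, was at least 79.4-fold higher and Vgll4, a partner of TEAD factors, at least 81.1-fold. All 4 genes had counts in every closed library, at 4.19 to 19.4 CPM, so that libraries 09 and 10 were the low ones of the series. Slc35a3 at 39.5 CPM in library 14 also lay well above that closed range. The remaining genes of these 12 were Kctd12 (45.7 and 17.7 against 169 and 121 CPM), the unnamed transcript 2610029G23Rik (73.2 and 80.7 against 256 and 200 CPM) and a gene whose symbol a spreadsheet had turned into the date 9-Sep (7.54 and 3.91 against 134 and 109 CPM).

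**Figure D1:**
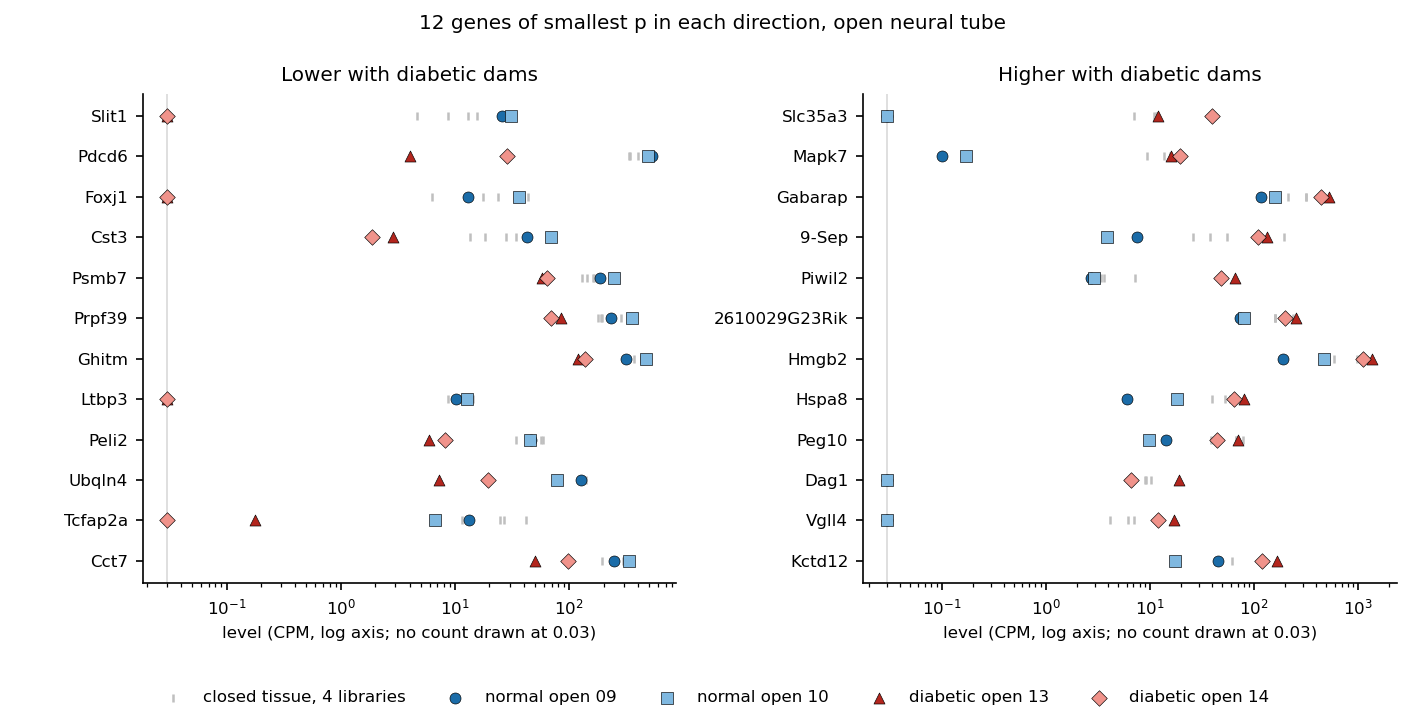
Level of the 12 genes of smallest p in each direction, in CPM on a log axis, with each open library as a coloured symbol and the closed libraries as grey ticks; no count is drawn at 0.03. The genes were chosen for small p, which favours groups that do not overlap, and none passed edgeR's test. For Pdcd6 and Psmb7 the closed ticks lie nearer the normal libraries, while for Mapk7 and Slc35a3 they lie nearer the diabetic ones.

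Globin and vessel genes were next examined, since blood and endothelium border the neural folds at this stage. Embryonic red cells carry their own globins, of which Hba-x is the alpha-type and Hbb-bh1 a beta-type chain. Hba-x was at 62.7 and 1.02 CPM with normal and 874 and 978 CPM with diabetic dams, 29-fold higher on the means (log2 fold change 4.84, SE 1.65, edgeR adjusted p = 0.631). Hbb-bh1 was at 1.71 and 0 against 22.8 and 11.6 CPM. For both globins each diabetic library was above each normal one, and the normal libraries also differed widely from each other in Hba-x. Gata1, the master factor of red cells, had no count in normal tissue and stood at 2.71 and 3.17 CPM with diabetic dams. Of 27 primitive blood genes listed, 12 passed the filter on counts, which a gene can pass through its higher group alone. Members with few counts in all libraries are thus not in these counts or the median. Of the 12 genes tested, 5 (41.7%) had both diabetic libraries higher and 0 had both lower, against 17% and 15.4% of all genes. Their median log2 fold change was 3.26, 2.66 with genes at 0 set to their bound, and edgeR called 0. The summed level of the list was 364 and 220 CPM against 1110 and 1250 CPM. Hba-x made up most of this sum in 13 and 14, and the globins Hbb-y and Hbb-b1, named after their values were seen, had no count in any library. Without library 13 the median was 0.46, and 7 of the 12 lay above both normal libraries in library 14 (31% of all genes tested) and 1 below (29.3%).

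Endothelial genes leaned the same way. Of 28 listed, 19 passed the same filter, which again can be passed through the higher group alone. Of these 19, 10 (52.6%) had both diabetic libraries higher and 0 had both lower, against 17% and 15.4% of all genes. Their median log2 fold change was 2.49, with 0 calls by edgeR. A pair of members is counted among the blood genes too, since both cell types use them. Tek, the angiopoietin receptor, was at 2.61 and 0 CPM with normal and 104 and 29.6 CPM with diabetic dams. Egfl7, a protein secreted by endothelium, was at 50.8 and 46.9 against 140 and 87.6 CPM, 2.33-fold higher. Cdh5, the endothelial cadherin, was at 0 and 3.91 against 28.8 and 6.58 CPM, and Tie1, a receptor that works with Tek, at 3.92 and 0 against 14.2 and 8.22 CPM. Library 13 was above library 14 in all 4. The median without library 13 was 0.34, and in library 14 alone 10 of 19 lay above both normal libraries and 4 below, against 31% and 29.3% of all genes. Sox7, a factor of early vessels, was at 20.2 and 28.5 against 139 and 30.9 CPM, so library 14 barely left the normal range.

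Mesoderm genes set library 13 apart more than they set the dams apart. Pdgfra, a growth factor receptor of mesenchyme, was at 30.5 and 31.1 CPM with normal dams and at 466 and 65 CPM with diabetic dams, 8.62-fold higher on the means (log2 fold change 3.11, SE 0.73, edgeR adjusted p = 0.587). Twist1, a mesenchymal factor needed for cranial closure, was at 15.3 and 48.6 against 310 and 111 CPM. Pax1, a factor of the sclerotome, was at 8.45 and 0.17 against 242 and 13.5 CPM. All 3 were higher in both diabetic libraries, and 13 exceeded 14 by several fold. Of 28 paraxial mesoderm and mesenchyme genes tested, 8 (28.6%) had both diabetic libraries higher and 2 (7.14%) lower, against 17% and 15.4% of all genes. Their median was 1.23, and 0.29 without library 13. In library 14 alone 9 of the 28 lay above both normal libraries and 6 below, against 31% and 29.3% of all genes. Lateral and cardiac mesoderm genes rested on library 13 alone. Of 32 listed 14 were tested, and only Acta2 was higher in both diabetic libraries (0 and 0 against 7.18 and 0.352 CPM). The sum of the list was 15.7, 6.29, 343 and 0.352 CPM in 09, 10, 13 and 14. The median of the genes tested was 4.58 with and -4.74 without library 13.

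**Figure D2:**
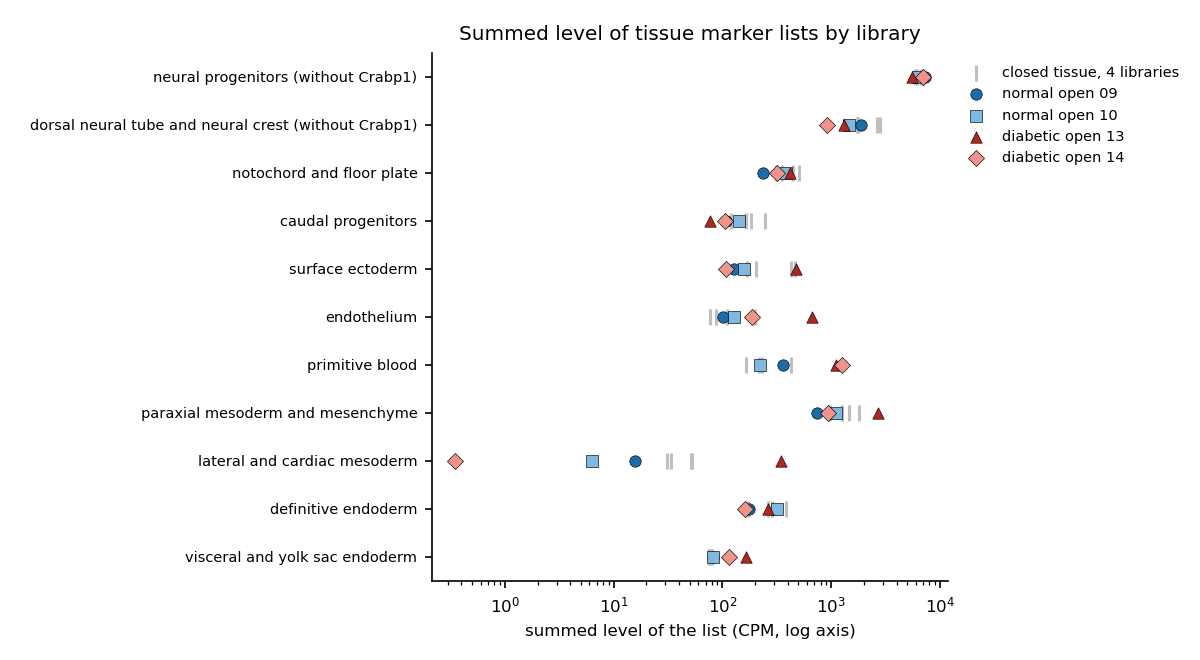
Summed level of 11 tissue marker lists in each library, in CPM on a log axis, with open libraries as coloured symbols and closed libraries as grey ticks. Crabp1 is left out of the neural and dorsal sums, much of which it carries; library 13 is highest of the 8 for endothelial, mesoderm and cardiac genes, library 14 is lowest for dorsal genes at 909 CPM, and for primitive blood libraries 13 and 14 lie together above the other 6, at 1110 and 1250 CPM.

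Neural progenitor genes were low in library 13 more than in library 14. Of 30 tested, 2 (6.67%) had both diabetic libraries higher and 6 (20%) lower, against 17% and 15.4% of all genes, and the median was -0.34, or 0.29 without library 13 and -1.76 without library 14. Nes, an intermediate filament of progenitors, was at 188 and 177 against 37.1 and 158 CPM. Sox11, a factor of young neurons, was at 1850 and 2150 against 2690 and 2570 CPM, and Lin28a, a brake on let-7 maturation, at 2370 and 2180 against 1530 and 2040 CPM. Hes3, a repressor that keeps progenitors from differentiating, was the only member with its nearest libraries over 2-fold apart, at 68.7 and 70.8 against 3.12 and 28.1 CPM. The summed level of the list without Crabp1, a single gene that carries much of it, was 7220 and 6270 CPM with normal dams, 5530 CPM in library 13 and 7040 CPM in library 14, so that library 14 lay within the normal pair and 13 below it. In library 14 alone 10 of 30 lay above both normal libraries and 7 below, against 31% and 29.3% of all genes.

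Pax3 was lower in both diabetic libraries, though not by the test. It was at 57.6 and 108 CPM with normal and at 7.59 and 34.2 CPM with diabetic dams (log2 fold change -1.99, SE 0.72, edgeR adjusted p = 0.647, DESeq2 adjusted p = 0.135). The nearest libraries were 1.69-fold apart, and closed tissue showed no such order, at 76.5 and 101 against 139 and 50.6 CPM. Of 25 dorsal neural tube and neural crest genes tested, 6 (24%) had both diabetic libraries higher and 7 (28%) lower, against 17% and 15.4% of all genes. Their median was 0.00, with 12 positive and 12 negative, or -0.19 with genes at 0 set to their bound. It was -0.77 without library 13 and -0.67 without library 14. The summed level of the list without Crabp1 was 1880 and 1460 CPM with normal and 1300 and 909 CPM with diabetic dams. Msx1, a roof plate factor downstream of BMP, was at 335 and 219 against 186 and 66.6 CPM, and Sox9, a crest factor, at 38.7 and 64.7 against 17.6 and 24.7 CPM. Id3, a BMP-induced inhibitor of bHLH factors, was at 948 and 819 against 566 and 409 CPM, while its relative Id1 was at 26.4 and 12.2 against 60.7 and 65.9 CPM. Id1 and Id3 thus lay in opposite directions, each without overlap between the groups. Wnt3a, a dorsal midline ligand, was at 1.71 and 6.79 CPM and had no count with diabetic dams, 57 counts against 0.

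Imprinted genes, which are expressed from 1 parental copy and many of which act on growth, leaned upward in diabetic open tissue. Of 25 tested, 13 had both diabetic libraries higher, against 17% of all genes, and 4 had both lower, against 15.4%. The median log2 fold change was 1.52, with 0 calls by edgeR and 5 by DESeq2, all higher, and 0.58 without library 13. Igf2, a fetal growth factor, was at 79.9 and 160 CPM against 1870 and 198 CPM, and H19, the non-coding gene beside it, at 124 and 255 against 1730 and 296 CPM. For both the gap rested on library 13, since library 14 was only 1.24-fold and 1.16-fold above the nearer normal library. Mest, a paternally expressed gene of mesoderm, was at 1690 and 1810 against 10200 and 2930 CPM. Gnas, which gives rise to the stimulatory G protein, was at 227 and 980 against 1850 and 1520 CPM, and of these 4 it was the one in which 13 and 14 were most alike. The 4 members below included Zdbf2 (234 and 182 against 155 and 125 CPM) and Grb10, an adaptor that limits growth, whose nearest libraries were almost level (574 and 429 against 394 and 426 CPM). Meg3, the maternally expressed RNA of the Dlk1 region, was at 754 and 1220 against 1840 and 673 CPM, with 13 and 14 on either side of the normal pair. The same list had a median of 0.00 in closed tissue. In library 14 alone 13 of 25 lay above both normal libraries and 6 below, against 31% and 29.3% of all genes.

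**Figure D3:**
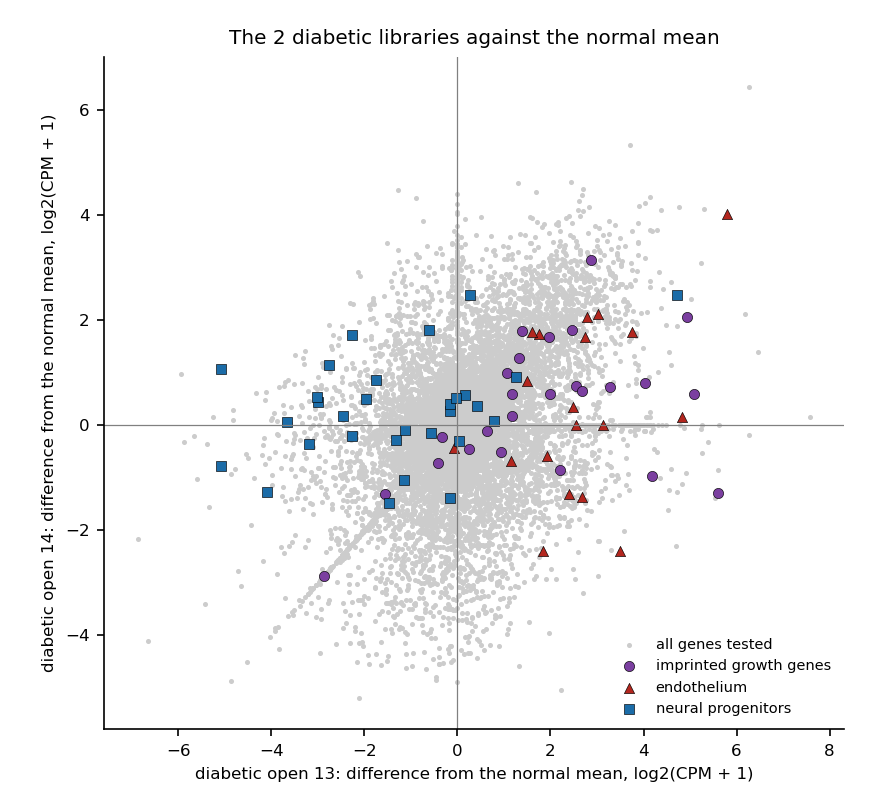
Difference of each diabetic open library from the mean of the normal open libraries, in log2(CPM + 1), with library 13 on the horizontal and library 14 on the vertical axis and 1 point per gene tested. Imprinted and endothelial genes lie mostly to the right, further out in 13 than in 14, and neural progenitor genes spread mostly to the left in 13; both axes share the same normal libraries, so the slope of the cloud has no test.

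Matrix genes went with the mesoderm. Of 40 collagen, laminin and other matrix genes tested, 10 (25%) had both diabetic libraries higher and 4 (10%) lower, against 17% and 15.4% of all genes. Their median of 0.64 became -0.10 without library 13. Col3a1, a fibrillar collagen of mesenchyme, had no count in 09 or 10 and was at 87.1 and 1.64 CPM in 13 and 14. Col1a2, its partner in fibrils, was at 8.45 and 11.9 against 191 and 19.9 CPM. Col9a1, a collagen of cartilage and notochord sheath, differed in both, at 0 and 0.34 against 30.2 and 19.6 CPM. Sparc, a collagen-binding matrix protein, was at 12.8 and 17.7 against 48 and 29.2 CPM. Basement membrane collagen Col18a1 lay the other way, at 608 and 676 against 248 and 524 CPM. Of these 5, Col9a1 and Sparc were the ones higher in both diabetic libraries at levels less than 2-fold from each other.

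Genes of glucose use lay on both sides of the normal libraries. Slc2a1, the main glucose transporter of the early embryo, was at 460 and 595 CPM with normal and 168 and 509 CPM with diabetic dams, and library 14 lay inside the normal range. Slc2a2, a high-capacity glucose transporter, had no count in any of the 8 libraries, which does not show that its RNA was absent. Of 20 glycolysis and lactate genes tested, 2 (10%) had both diabetic libraries higher and 6 (30%) lower, against 17% and 15.4% of all genes, a median of 0.05. Slc16a3, which exports lactate, was at 25.4 and 113 against 209 and 298 CPM, 3.67-fold higher (edgeR adjusted p = 0.631). Hk2 and Pfkfb3, which start and pace glycolysis, were at 158 and 183 against 91.8 and 126 CPM and at 115 and 31.4 against 13 and 22.3 CPM. Of 24 hypoxia genes tested, 1 (4.17%) was higher in both and 5 (20.8%) were lower, and the 1 was Hif1a, the oxygen-sensed factor itself, at 116 and 118 against 232 and 171 CPM. Of 42 oxidative phosphorylation genes tested, 11 (26.2%) were higher and 12 (28.6%) lower in both, with a median of 0.00.

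Oxidative and folding stress genes came next. Of 35 antioxidant genes tested, 6 (17.1%) had both diabetic libraries higher and 6 (17.1%) lower, near the 17% and 15.4% of all genes. Gsta4, which clears lipid peroxidation products, was at 28.7 and 20.4 against 34.7 and 92.6 CPM, and Gpx4, which guards membranes from peroxides, at 356 and 299 against 296 and 84 CPM. Of 26 endoplasmic reticulum stress genes, 7 (26.9%) were higher and 3 (11.5%) lower in both, and Hspa5, the lumenal chaperone and standard marker of this stress, was at 992 and 990 against 1510 and 1030 CPM. Of 24 heat shock and folding genes, 4 (16.7%) were higher and 8 (33.3%) lower, among them Hspd1, the mitochondrial chaperonin, at 2260 and 1660 against 1440 and 1440 CPM.

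The p53 and apoptosis list had 10 of 31 genes (32.3%) higher and 3 (9.68%) lower in both diabetic libraries, against 17% and 15.4% of all genes, with a median of 0.15 and 0 calls by edgeR. Trp53 itself, the tumour suppressor that Pax3 is known to restrain in the neural tube, was at 15.4 and 51.5 CPM with normal and 78.5 and 73.8 CPM with diabetic dams. Aen, a nuclease induced by p53, was at 26.4 and 23.4 against 68.6 and 50.3 CPM, 2.38-fold higher (edgeR adjusted p = 0.631). Diablo, released from mitochondria to free caspases, was at 9.15 and 14.4 against 20 and 50.3 CPM. Casp8, the initiator caspase of death receptors, lay the other way, at 36.4 and 70 against 25.8 and 33.8 CPM. In each of these 4 the groups did not overlap, but the nearest libraries were only 1.08-fold apart for Casp8, 1.39-fold for Diablo and 1.43-fold for Trp53.

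Of 29 folate and methylation genes, 6 (20.7%) were higher and 9 (31%) lower in both, against 17% and 15.4% of all genes. Mat2a, which makes S-adenosylmethionine, was at 327 and 239 against 364 and 499 CPM, and Shmt1, which moves carbon units from serine to folate, at 208 and 143 against 134 and 138 CPM. Dnmt3b, the DNA methyltransferase of the early embryo, was at 11.1 and 10.7 against 25.5 and 38.9 CPM. Tet1, which oxidises methylcytosine, was at 23.8 and 47.1 against 12.1 and 8.46 CPM. The methyltransferase and the oxidase thus lay in opposite directions, both without overlap.

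Of 43 cell cycle genes tested, 4 (9.3%) were higher and 11 (25.6%) lower in both diabetic libraries, against 17% and 15.4% of all genes, while 21 had a positive and 22 a negative log2 fold change. Mcm5, a subunit of the replicative helicase, was at 748 and 587 against 333 and 498 CPM, and Ccne1, the cyclin of entry into S phase, at 479 and 453 against 268 and 420 CPM. Cenpa, the histone of centromeres, was at 738 and 659 against 391 and 465 CPM. The median of the list was -0.08, and 0 passed edgeR. Of 78 cytosolic ribosomal protein genes listed 45 were tested, of which 8 (17.8%) were higher and 8 (17.8%) lower. Rps7, a small-subunit protein, was at 1010 and 882 against 1910 and 1550 CPM. In closed tissue it was at 926 and 1110 against 1910 and 1730 CPM. Of 33 proteasome genes, 9 (27.3%) were higher and 4 (12.1%) lower, with Psmb7 among the lower. Psmd11, a lid subunit, lay the other way, at 296 and 246 against 405 and 429 CPM.

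Genes whose mouse mutants fail to close the neural tube were examined as a list of 110 tested. Both diabetic libraries were higher for 16 (14.5%) and lower for 21 (19.1%), near the 17% and 15.4% of all genes, the median was -0.02, and 0 passed edgeR. Vangl2 and Grhl3, a core planar polarity protein and a surface ectoderm factor, were at 6.54 and 28.5 against 9.53 and 7.64 CPM and at 6.74 and 4.76 against 3.94 and 5.76 CPM. In both the groups overlapped. Among planar polarity genes, 4 of 28 (14.3%) were higher and 4 (14.3%) lower. Celsr2, an atypical cadherin of this pathway, was at 50.6 and 13.8 against 0.0588 and 3.05 CPM, and Fzd3, its receptor partner, at 399 and 356 against 110 and 348 CPM. Actin and apical constriction genes had 9 of 34 (26.5%) higher and 2 (5.88%) lower, against 17% and 15.4% of all genes. The higher ones included the kinase Rock2 (41.5 and 39.9 against 65.3 and 76.9 CPM), the non-muscle myosin Myh10 (192 and 159 against 274 and 240 CPM) and the polarity scaffold Pard3 (23.6 and 30.6 against 45.5 and 89.5 CPM). Fhod3, a formin that builds actin filaments, lay the other way with a wide gap, at 32.7 and 27.5 against 0.235 and 2.7 CPM. The median of the actin list was 0.20, and -0.06 without library 13.

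Primary cilium genes, which relay hedgehog signals, had 6 of 33 (18.2%) lower and 2 (6.06%) higher in both, against 15.4% and 17% of all genes. Tctn2 and Rpgrip1l, both of the ciliary transition zone, were at 65.3 and 106 against 20.2 and 36.4 CPM and at 27.8 and 26.5 against 1.35 and 9.63 CPM. Ift172, of the transport train, lay the other way at 10.5 and 20.6 against 52.8 and 24.9 CPM. Hedgehog genes proper had 3 of 12 (25%) higher and 2 (16.7%) lower, and the target Gli1 was at 247 and 283 against 231 and 193 CPM. Among BMP genes 4 of 23 (17.4%) were higher and 4 (17.4%) lower. Fst, which traps activins and BMPs, was at 29.1 and 22.6 against 123 and 76 CPM, 3.84-fold higher (edgeR adjusted p = 0.598), and Nog, a BMP antagonist, at 14.3 and 12.1 against 4.18 and 3.17 CPM.

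Notch, FGF, Wnt, retinoic acid and guidance genes were counted the same way, to be read beside 17% higher and 15.4% lower of all genes. Of 24 Notch genes 7 (29.2%) were higher and 4 (16.7%) lower. Their median log2 fold change was 0.49, or 0.02 without library 13. The members named here came from the smaller, lower group and do not stand for the list. They were the receptor Notch1, at 127 and 80.9 against 49.8 and 54.6 CPM, and its target Hes1, at 44.4 and 54.7 against 24.5 and 6.58 CPM. Of 17 FGF genes 4 (23.5%) were higher and 5 (29.4%) lower, with Dusp6, a feedback phosphatase, at 6.33 and 6.79 against 45 and 23.8 CPM and the receptor Fgfr4 at 71.2 and 143 against 12 and 57 CPM. Of 39 Wnt genes 2 (5.13%) were higher and 7 (17.9%) lower, with the receptor Fzd10 at 116 and 135 against 47.5 and 69.1 CPM. Of 17 retinoic acid genes 0 were higher and 2 (11.8%) lower in both. Among guidance genes, 5 of 35 (14.3%) were higher and 2 (5.71%) lower, with Nrp1, a receptor for semaphorin and VEGF that endothelium also carries, at 38.9 and 6.62 against 242 and 42.5 CPM.

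**Figure D4:**
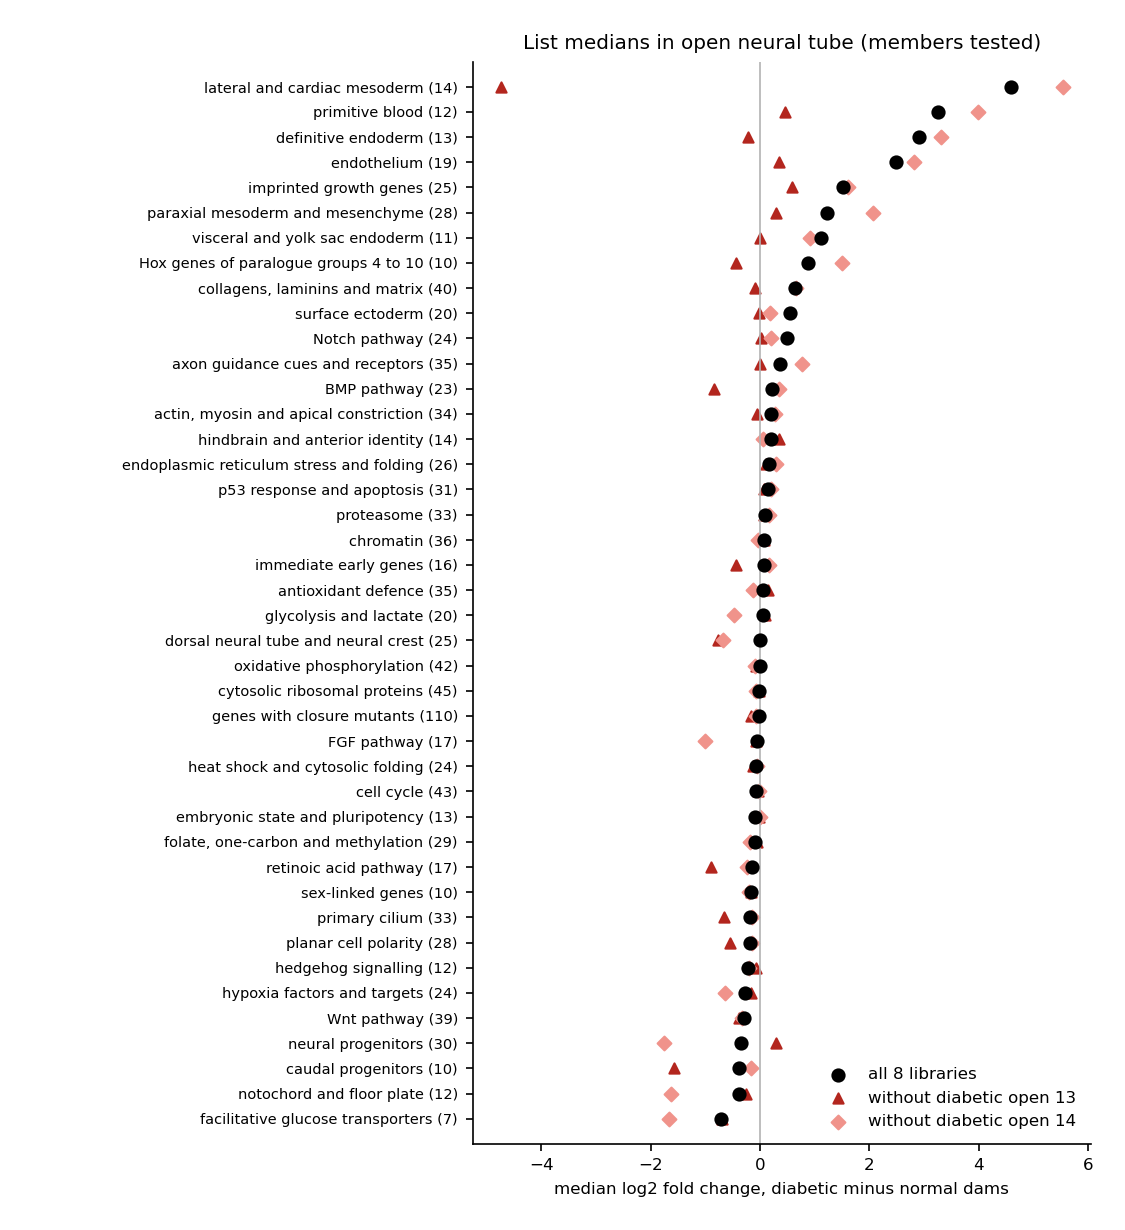
Median log2 fold change, diabetic minus normal dams, of each gene list with its number of genes tested, over all libraries (black) and with 1 diabetic library left out (triangles without 13, diamonds without 14). Lists of vessel, blood, mesoderm, endoderm and imprinted genes have the highest black points and move toward 0 or below without library 13, and most others stay near 0.

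The same contrast in closed neural tube was set beside these values to see whether a difference was shared. The interaction, which tests whether the dams' difference depends on the tissue, gave 0 calls by edgeR (0%), 440 genes at an unadjusted p under 0.05, 22 calls by DESeq2 and 1 by limma-voom. The gap over 2-fold between nearest libraries held in closed tissue for 582 genes higher and 177 lower. The overlap was 82 genes higher in both tissues, 13.7% of the open and 14.1% of the closed set, where 4.94% of all genes tested were in the closed set. For genes lower it was 12, or 3.09% of the open and 6.78% of the closed set, where the closed set was 1.5% of all genes tested. The gap lay in the opposite direction in closed tissue for 22 of the 388 genes lower in open tissue and for 14 of the 600 higher. These counts are to be read beside the unequal closed sets, 4.94% of all genes tested for higher and 1.5% for lower. The 2 comparisons use different libraries, although whether both tissues were cut from the same embryos is not stated in the labels.

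Pdcd6 had a log2 fold change of 0.13 (SE 0.63) in closed tissue, and the interaction was -5.11 (SE 0.95, edgeR unadjusted p = 0.00033, DESeq2 adjusted p = 1.01e-05). Its edgeR adjusted p was 1. Psmb7 stood at 0.08 (SE 0.30) in closed tissue with an interaction of -1.90 (SE 0.43), and Piwil2 at -0.84 (SE 0.74) with an interaction of 5.19 (SE 1.08). For these 3 the closed difference was small beside the open one, and no interaction passed edgeR. Other genes leaned the same way in both tissues. Rps7 had 0.87 (SE 0.24) in open and 0.84 (SE 0.24) in closed tissue, Fst 1.94 (SE 0.48) and 1.42 (SE 0.47), and Hmgb2 1.90 (SE 0.40) and 0.98 (SE 0.39). Tek had 5.59 (SE 1.52) and 6.51 (SE 1.85), with 0 and 0.152 CPM in normal closed libraries and 3.43 and 14.1 CPM in diabetic ones. Hba-x had 0.363 and 0.304 CPM in normal closed libraries and 4.44 and 204 CPM in diabetic ones, so that diabetic closed library 15 lay below normal open library 09.

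**Figure D5:**
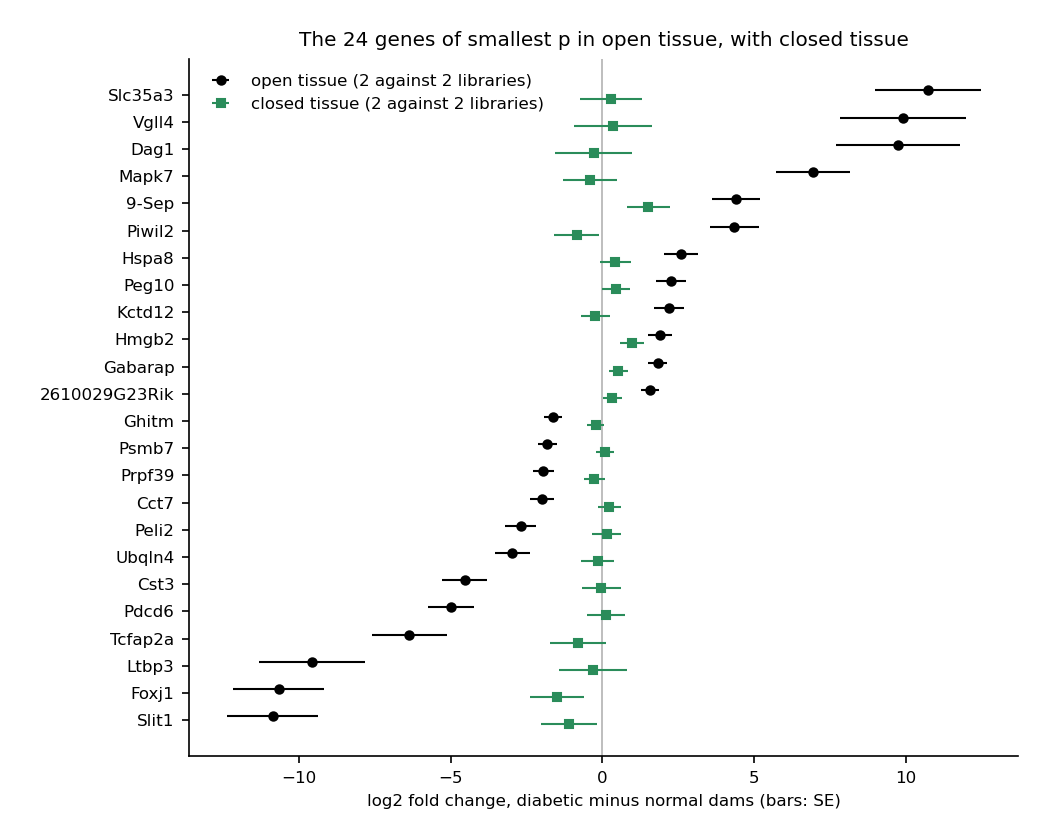
Log2 fold change, diabetic minus normal dams, of the 24 genes of smallest p in open tissue (black circles) and the same contrast in closed tissue (green squares), with bars of 1 SE and 2 libraries a group. The closed values lie near 0 for most of these genes, with 0.13 for Pdcd6; the genes were chosen for their open values, so distance from 0 in black is no test.

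The genes with the widest spread between the 2 diabetic libraries, chosen for that spread, included patterning genes. Crabp1, a retinoic acid binding protein of hindbrain and crest, was at 1110 CPM in library 13 and 16600 in library 14, with 9650 and 5890 CPM in the normal pair. Zic1, a dorsal neural factor, was at 4.65 and 110 CPM against 358 and 101 CPM, and Dbx1, of the intermediate neural tube, at 2.18 and 225 against 236 and 48.1 CPM. Genes far higher in 13 were Aldh1a2, the retinoic acid synthase of somitic mesoderm (243 against 0.587 CPM in 14), the imprinted Dlk1 (241 against 9.75 CPM) and Meox2, of the somite (126 CPM against no count). For Crabp1 and Aldh1a2 the normal pair lay between the diabetic libraries.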

How the data were processed

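Raw tag counts per gene, 1 file per library, were used as deposited by the authors; per the submitters' processing notes they were made on build mm9. The sources used here do not name the aligner, counting program, annotation or strand setting, so genes with near-identical copies or antisense partners are uncertain. Per the labels' protocols, 7 ng of total RNA entered each SOLiD SAGE library.

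Groups follow the sample titles. In R 4.3.3, edgeR 4.0.16 kept 11779 genes by filterByExpr (minimum count 10, minimum total 15), scaled libraries by TMM and fitted the 4 groups of all 8 libraries, which share 1 estimate of the spread. A gene can pass filterByExpr through its higher group alone. The quasi-likelihood F test was adjusted by Benjamini-Hochberg over all genes (threshold 0.05), and each SE is derived from the F statistic. DESeq2 1.42.0 and limma-voom (limma 3.58.1) were alternatives, beside other scalings, other filters, an additive model and leaving out each library. Where a group has no count, a fold is a bound against 3 counts over the group. With 3 counts or fewer, the ratio has an exact binomial 95% interval.

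The 42 gene lists and all choices were made with earlier results of these data known. Named genes are the 12 of smallest p in each direction (mean count 10 or more), up to 6 members of each list without overlap between groups (else the 2 most abundant), in each direction the 6 with the widest gap (at least 20 CPM in the higher group) and the 6 furthest apart between libraries 13 and 14 (at least 100 CPM in 1 of them), and 15 fixed genes. Expected tags were read from GENCODE M21 transcripts on GRCm38, another build than that of the counts. Some genes and 1 tag are not reported here. No library was left out, and 25 gene names turned into dates by a spreadsheet were kept.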

Additional observations from a re-analysis of the deposited data

How the results depend on the processing

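The count of genes called in open tissue was 0 by edgeR under every scaling, with the 4 open libraries alone and in the additive model. It was 138 with no filter on low counts, 199 by DESeq2 and 1 by limma-voom. Genes with an unadjusted edgeR p under 0.05 numbered 851 of 11779 in the main fit. They numbered 437 of 10404 with the 4 open libraries alone and 536 of 11779 in the additive model. Leaving out 1 library in turn gave 0 to 61 calls (51 without 09, 0 without 10, 5 without 13, 61 without 14), where the lone library of a group is assumed to vary like the other groups. Pdcd6 passed edgeR without library 13 (adjusted p = 0.0109), without 14 and without 09. The interaction gave 23 calls with no filter, 22 by DESeq2, 1 by limma-voom and 0 to 9 with a library left out (2 without 13, 9 without 14). The cause of these changes was not tested. Non-overlap is easier to reach against a single library, so leaving out a library gave 3282 to 4212 genes higher and 3123 to 3831 lower, and 1193 to 1977 higher and 959 to 1414 lower with a gap over 2-fold. With a mean of at least 50 counts this gap held for 329 genes higher and 164 lower, fewer genes being tested. Counts of list members without library 13 and list sums without Crabp1 were added after seeing the data. The median of all genes moved to 0.122 without library 09 and to -0.054 without 13.

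Directions turned for these named genes. The log2 fold change of Aldh1a2 was -0.48 by limma-voom and -6.52 to 2.11 with a library left out, turning without 13. Crabp1 was at -0.12 in the additive model, -1.14 by limma-voom and -2.83 to 1.09. Meg3 was at -0.31 in the additive model and -0.56 to 0.88. Grhl3 was at 0.04 in the additive model and -0.56 to 0.02. Xist was at 0.04 by limma-voom and -6.92 to 4.38. The ranges with a library left out were -6.04 to 1.23 for Dbx1, -3.07 to 9.19 for Gata4, -9.32 to 12.06 for Meox2 and -1.74 to 0.38 for Vangl2. No other named gene turned under the alternatives run. No paired analysis was possible because no library number occurs in more than 1 group. Depth and the loss of genes between libraries limit what can be said of genes below about 10 counts.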
